A study of Mus musculus with 20 samples.

Results

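Skeletal muscle of the left hindlimb of wild-type C57BL/6J mice was compared by RNA sequencing between irradiated and sham-treated limbs, 70 days after a single treatment. The irradiated limbs took 35 Gy of electrons, delivered by a linear accelerator, and gave 7 libraries, of which 4 were given the dose at ultra-high rate (FLASH) and 3 at conventional rate (CONV). The sham group held 3 libraries of mice that were not irradiated. These 10 libraries were chosen as the muscle libraries among the 20 of the series, the rest being skin. Groups were read from the library name that each deposited file carries. In 5 of the 10 muscle libraries that name disagreed with the title of the record that holds the file, and in 4 of them the group differed. The files named FLASH 3 and FLASH 5 lie under sham records, those named sham 2 and sham 4 lie under FLASH records, and the file named FLASH 4 lies under the record of another FLASH library. The comparison of all irradiated with sham libraries was therefore repeated with the groups of the records. The comparisons of single arms were run by library name alone and were not repeated by record. Libraries are called here by the group and number of their library name. Whether the numbered libraries come from different animals is not said in the labels. The p-values therefore speak of the spread among these libraries, some of which may be technical.

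Skeletal muscle is built of long multinucleate fibres, either fast or slow in contraction, among which capillaries, fibroblasts, stem cells and resident macrophages lie. Ionising radiation breaks DNA and activates the transcription factor p53, whose targets include the cell cycle inhibitor Cdkn1a. In the weeks after a high dose, muscle is known for vessel damage, macrophage entry, loss of fibre mass and scarring. FLASH irradiation is studied because it has been reported to spare normal tissue at doses that are still effective in tumours, and the design asked whether both dose rates leave the same late trace.

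The libraries held 10198699 to 12336479 estimated counts, with 17629 to 18662 genes detected in each. Between 60.01% and 65.1% of counts fell on the 10 genes with the most counts, and 5.67% to 11% fell on mitochondrial-encoded genes, with the highest share in FLASH 3. Muscle markers were present throughout: the summed level of 18 skeletal muscle genes was 119110 to 145850 CPM (counts scaled to a common library size of 1e6) in irradiated and 126080 to 166150 CPM in sham libraries. Keratin genes of skin were nearly absent, with Krt5 and Krt14 at 2.90 and 2.72 CPM in FLASH 6 and at most 0.491 CPM in the other 9. In bulk tissue, fewer cells of a type and less RNA per cell cannot be told apart.

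Few genes passed the test of all irradiated against sham libraries, and all of those were lower after irradiation. Of 13080 genes tested with edgeR, 4 (0.0306%) had a Benjamini-Hochberg adjusted p under 0.05, none of them higher. At an adjusted p under 0.1 there were 57 higher genes (0.436%) and 40 lower ones (0.306%). At an unadjusted p under 0.05 there were 895 higher genes (6.84%) and 890 lower ones (6.8%). The groups did not overlap for 326 genes (2.49%) that were above all sham libraries in every irradiated library, and for 396 (3.03%) that were below. The median log2 fold change of all genes tested was 0.01.

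Ttyh2 (ENSMUSG00000034714, chromosome 11, 114675431 to 114720977), which encodes a membrane protein of the tweety family, fell after irradiation. It stood at 6.78, 7.89, 7.53 and 5.26 CPM in FLASH and 8.09, 6.20 and 7.11 CPM in CONV libraries, against 14.9, 13.2 and 12.7 CPM in sham libraries. The highest irradiated library was well below the lowest sham library. The log2 fold change was -0.96 ± 0.13 (standard error, 7 irradiated against 3 sham libraries, adjusted p = 0.0116).

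Bhlhe41 (ENSMUSG00000030256, chromosome 6, 145858243 to 145865558), a transcriptional repressor of the circadian clock that binds E-box sequences, also fell. Its level was 47.7, 36.9, 49.1 and 39.9 CPM in FLASH and 49.2, 40.9 and 38.7 CPM in CONV libraries, against 75.8, 73.4 and 68.8 CPM in sham libraries. Both irradiated groups covered the same range, and sham lay above it in every library. The log2 fold change was -0.75 ± 0.10 (adjusted p = 0.0116). Its promoter is shown because clock proteins, its own product among them, act on E-boxes. The stretch is RefSeq sequence of build GRCm38.p6, chr6:145865521-145865620 on the minus strand, 200 to 101 bases before the gene start that RefSeq gives, and the capitals mark the E-box CACGTG, which reads the same on both strands and lies 153 bases before that start. The GENCODE gene given above starts farther upstream, inside the printed stretch, so these distances hold for the RefSeq start alone.
Bhlhe41: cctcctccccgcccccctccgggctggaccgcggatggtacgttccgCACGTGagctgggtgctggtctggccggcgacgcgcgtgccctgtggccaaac
The letters CACGTG occurred in 7.15% of 32851 mouse promoters of 300 bases and in 6 of 21 promoters of the circadian clock list. A match is a description of the letters and shows no binding.

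Mafa (ENSMUSG00000047591, chromosome 15, 75745490 to 75748228), a large Maf transcription factor known from the insulin-producing beta cell and, in mouse muscle, from the fastest fibre type, fell as well. It measured 19.6, 15.2, 19.6 and 19.3 CPM in FLASH and 21.4, 15.1 and 15.0 CPM in CONV libraries, against 29.9, 28.5 and 35.6 CPM in sham libraries (log2 fold change -0.81 ± 0.12, adjusted p = 0.027). Pld5 (ENSMUSG00000055214, chromosome 1, 175962306 to 176275312), a member of the phospholipase D family, fell too. It had 1.44, 1.64, 1.79 and 2.54 CPM in FLASH and 2.34, 1.69 and 1.47 CPM in CONV libraries, against 4.01, 4.27 and 4.81 CPM in sham libraries (log2 fold change -1.24 ± 0.20, adjusted p = 0.0494). Neither gene had an irradiated library within the sham range.

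These calls rested on few libraries. Without FLASH 4, FLASH 5, CONV 8, CONV 10, sham 1, sham 2 or sham 4 the adjusted p of Pld5 was 0.0645 to 0.159, and that of Mafa was 0.0581 to 0.133 without FLASH 4, CONV 10, sham 1 or sham 4. Without sham 1 the adjusted p of Ttyh2 and of Bhlhe41 was 0.133, at log2 fold changes of -0.89 and -0.71.

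**Figure D1:**
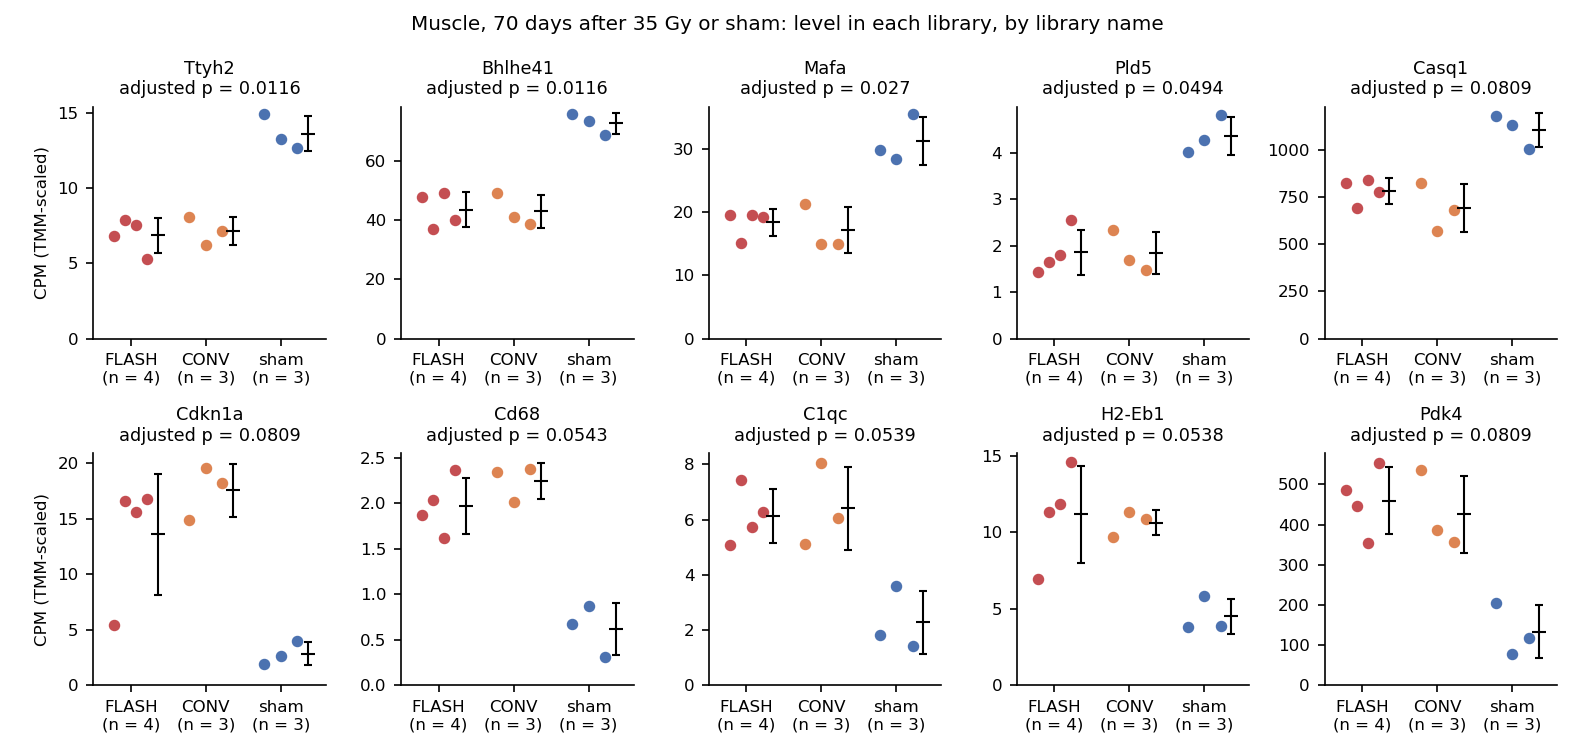
Level of 10 genes in each muscle library in CPM (vertical axes, TMM-scaled, from 0), for FLASH, CONV and sham libraries by library name; each point is 1 library, and the bar beside each group is its mean ± SD. In all 10 panels the irradiated and sham points do not overlap, and only Ttyh2, Bhlhe41, Mafa and Pld5 have an adjusted p under 0.05.

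No gene that was higher after irradiation passed the test at 0.05. The higher protein-coding genes with the smallest p were Depp1, H2-Eb1, C1qc, Cd68 and Trp53inp1, with adjusted p of 0.0538, 0.0538, 0.0539, 0.0543 and 0.0809. The next lower gene, Nhs, a regulator of actin and cell shape, had a log2 fold change of -0.88 ± 0.17 (adjusted p = 0.0809). Genes named from here on for a small p were chosen after their values were seen, and their adjusted p is given wherever they did not pass. Among the 40 protein-coding genes described by rule or by p, 29 were higher and 11 lower.

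Macrophage genes were higher in direction without exception among the members tested. Of 17 macrophage markers, 15 were abundant enough to be tested and all 15 were higher in irradiated muscle, with a median log2 fold change of 1.22. The filter asks for enough counts only in as many libraries as the smaller group holds. A member can therefore be tested through its irradiated libraries alone. That can favour a higher direction among members of low level, such as Cd68, here and in the other lists. At an unadjusted p under 0.05 there were 12 higher members, set against 6.84% of all genes, and 5 had an adjusted p under 0.1, set against 0.436% of all genes. In 6 of the 15 every irradiated library was above every sham library, which held for 2.49% of all genes.

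Cd68 (ENSMUSG00000018774), a lysosomal glycoprotein of macrophages, had 1.87, 2.03, 1.61 and 2.36 CPM in FLASH and 2.34, 2.01 and 2.37 CPM in CONV libraries, against 0.669, 0.872 and 0.307 CPM in sham libraries. Its log2 fold change was 1.72 ± 0.30 (adjusted p = 0.0543). C1qc (ENSMUSG00000036896), a chain of the complement starter C1q that tissue macrophages make, had 5.09, 7.42, 5.74 and 6.26 CPM in FLASH and 5.12, 8.05 and 6.05 CPM in CONV libraries, against 1.82, 3.57 and 1.43 CPM in sham libraries. Sham 2 was the highest sham library for both genes and still lay below the lowest irradiated library. Leaving out 1 library gave an adjusted p of 0.025 to 0.309 for Cd68 and 0.019 to 0.358 for C1qc, under 0.05 for both without FLASH 3 or sham 2 and highest without sham 1.

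Further genes are given here, of which Ctss, Tyrobp and Adgre1 belong to the macrophage list itself. Itgb2, Laptm5, C3ar1, Gas6 and Pros1 are outside it and were named for their small p. Their direction therefore adds nothing to that of the list. The lysosomal protease gene Ctss was at 1.72 ± 0.33 on the log2 scale, the adaptor gene Tyrobp at 2.17 ± 0.47 and the macrophage surface marker Adgre1 at 1.63 ± 0.35, each with an adjusted p of 0.0809 to 0.0839. The leukocyte integrin gene Itgb2 (1.81 ± 0.35), the lysosomal gene Laptm5 (1.31 ± 0.25) and the complement receptor gene C3ar1 (2.06 ± 0.42) were not on the marker list and had an adjusted p of 0.0809. Gas6 and Pros1, ligands of the receptors by which macrophages take up dying cells, were at 0.56 ± 0.11 and 1.13 ± 0.22 (adjusted p = 0.0809 each). The members of the macrophage list highest in CPM, Lyz2, the lysozyme gene, and Mrc1, the mannose receptor gene, were at 1.28 ± 0.29 and 0.62 ± 0.29 (adjusted p = 0.132 and 0.384).

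The summed level of the macrophage list was 65.5, 97.2, 92.1 and 95.9 CPM in FLASH and 83.4, 101 and 72.9 CPM in CONV libraries, against 30.2, 69.4 and 31.1 CPM in sham libraries. Sham 2 lay above FLASH 3 and close to CONV 10, so the sums overlapped between the groups. Few markers of other white blood cells had enough counts to be tested. Of 20 neutrophil and acute inflammation genes only 2 could be tested (Cxcr2 and Saa3, log2 fold changes -0.12 ± 0.23 and 0.15 ± 0.37), and Ly6g had no counts in any library. Of 15 T, B and mast cell markers 4 were tested, among which Ptprc, common to all leukocytes, was at 1.07 ± 0.25 (adjusted p = 0.0951) and Ighm, the immunoglobulin heavy chain of B cells, at -0.11 ± 0.44. The summed level of these 15 markers was 25.6 to 57.8 CPM in irradiated and 25.8 to 55.7 CPM in sham libraries, with Ighm the larger share of it, and the groups overlapped.

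Antigen presentation genes were higher in direction in all 16 members tested, with a median log2 fold change of 0.60. At an unadjusted p under 0.05 there were 9 higher members, set against 6.84% of all genes, and 0 lower ones, and in 4 every irradiated library was above every sham library, set against 2.49%. H2-Eb1 (ENSMUSG00000060586, chromosome 17, 34305867 to 34316674), a chain of the class II molecule that shows peptides to helper T cells, had 6.95, 11.3, 11.8 and 14.6 CPM in FLASH and 9.71, 11.3 and 10.9 CPM in CONV libraries, against 3.82, 5.84 and 3.89 CPM in sham libraries. FLASH 3 was the lowest irradiated library and stood just above sham 2. The log2 fold change was 1.27 ± 0.21 (adjusted p = 0.0538), and leaving out 1 library gave an adjusted p of 0.00257 (without FLASH 3) to 0.358 (without sham 1), under 0.05 without FLASH 3, FLASH 6 or sham 2. The class II chains H2-Aa (1.18 ± 0.28) and H2-Ab1 (1.16 ± 0.32), the peptide loading gene H2-DMb1 (2.03 ± 0.59), the invariant chain gene Cd74 (1.19 ± 0.31) and the class II activator Ciita (1.09 ± 0.33) had adjusted p of 0.14 to 0.194. The class I genes were less far apart: H2-D1 was at 0.43 ± 0.12, H2-K1 at 0.28 ± 0.11 and B2m, the shared light chain, at 0.53 ± 0.16 (adjusted p = 0.161, 0.299 and 0.207).

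Class II promoters are known for a shared block of motifs that ends in a Y box, an inverted CCAAT sequence. The 100 bases before the RefSeq start of 3 such genes are shown because these genes were higher in the same direction and class II genes are known to share that element. They are RefSeq sequence of build GRCm38.p6, chr17:34305767-34305866 on the plus strand for H2-Eb1, chr17:34287824-34287923 on the minus strand for H2-Aa and chr17:34153091-34153190 on the plus strand for H2-DMb1. Capitals mark ATTGG or, on the other strand, CCAAT.
H2-Eb1: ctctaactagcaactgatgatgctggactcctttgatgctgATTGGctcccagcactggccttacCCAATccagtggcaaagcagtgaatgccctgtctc
H2-Aa: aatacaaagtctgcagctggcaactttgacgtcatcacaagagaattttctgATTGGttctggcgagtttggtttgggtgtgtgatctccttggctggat
H2-DMb1: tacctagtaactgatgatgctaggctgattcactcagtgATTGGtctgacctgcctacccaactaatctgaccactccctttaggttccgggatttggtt
ATTGG lies 59, 48 and 61 bases before the RefSeq start in H2-Eb1, H2-Aa and H2-DMb1. The GENCODE start of H2-DMb1 lies farther upstream, so its printed stretch is inside the GENCODE gene. On either strand these letters occurred in 12 of 13 promoters of the antigen presentation list and in 37.4% of all 32851 promoters of 300 bases. Those 13 promoters belong to 11 genes of the list, which also holds class I genes. Here too a match describes the letters and shows no binding.

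Interferon-stimulated genes, the antiviral genes that interferon switches on, were higher in 22 of 23 members tested (median 0.46). An unadjusted p under 0.05 was reached by 6 higher and 0 lower members, set against 6.84% and 6.8% of all genes. The largest of these higher members were the oligoadenylate synthetase genes Oas2 and Oasl2, at 1.09 ± 0.32 and 0.82 ± 0.25 (adjusted p = 0.177 and 0.192). The guanylate binding gene Gbp7 was at 0.04 ± 0.18 (adjusted p = 0.957).

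Among p53 targets the groups differed most in Cdkn1a (ENSMUSG00000023067, chromosome 17, 29090976 to 29100727), which encodes the cell cycle inhibitor p21. It had 5.43, 16.6, 15.6 and 16.8 CPM in FLASH and 14.9, 19.6 and 18.2 CPM in CONV libraries, against 1.91, 2.62 and 3.99 CPM in sham libraries. FLASH 3 stood far below the other 6 irradiated libraries but above every sham library. The log2 fold change was 2.44 ± 0.42 (adjusted p = 0.0809), and without FLASH 3 it was 2.58 with an adjusted p of 5.42e-06. Leaving out any of the other 9 libraries gave 0.0995 to 0.392, the highest without sham 1.

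The p53-induced stress gene Trp53inp1 ranged from 11.4 to 14.4 CPM in irradiated libraries (median 13.6), against 7.17, 9.24 and 9.004 CPM in sham libraries (0.63 ± 0.12, adjusted p = 0.0809). The cell death genes Bax (0.62 ± 0.16) and Fas (1.03 ± 0.31), and Btg2, which slows division (1.11 ± 0.28), had adjusted p of 0.125 to 0.191. Of 28 p53 targets 23 were tested and 17 were higher (median 0.25). Counted at an unadjusted p under 0.05, 10 were higher and 0 lower, set against 6.84% and 6.8% of all genes. The members highest in CPM, Ccng1 and Tigar, were at -0.00 ± 0.11 and -0.13 ± 0.10. DNA damage sensing and repair genes were higher in 8 of 21 members (median -0.08). The 3 at an unadjusted p under 0.05 were lower, set against 6.8% of all genes: Trp53bp1 (-0.32 ± 0.12), Parp1 (-0.23 ± 0.09) and Xrcc5 (-0.41 ± 0.16). Of 18 CDK inhibitor and senescence-associated genes 11 were tested, of which 5 were higher and 6 lower (median -0.01). Among them 2 were higher and 1 lower at an unadjusted p under 0.05, set against 6.84% and 6.8% of all genes. The summed level of the list averaged 400.8 ± 93.4 CPM in irradiated and 566 ± 78.6 CPM in sham libraries (SD, n = 7 and 3), and Igfbp5, a growth factor binding protein, was at -0.61 ± 0.25 (adjusted p = 0.317). Igfbp7, a secreted growth factor binding protein, was at 0.45 ± 0.11 (adjusted p = 0.0988).

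Genes of fatty acid uptake and oxidation were higher in 27 of 28 members tested, with a median log2 fold change of 0.48. At an unadjusted p under 0.05 there were 19 higher members and 0 lower ones, set against 6.84% and 6.8% of all genes. An adjusted p under 0.1 was reached by 3 higher members, set against 0.436% of all genes. Pdk4 (ENSMUSG00000019577) encodes a kinase that inhibits pyruvate dehydrogenase and so turns fibres from glucose to fat. Pdk4 had 487, 446, 353 and 553 CPM in FLASH and 535, 386 and 356 CPM in CONV libraries, against 205, 76.6 and 117 CPM in sham libraries. Sham libraries spread widely, with sham 1 the highest, and the lowest irradiated library was well above the highest of them. The log2 fold change was 1.75 ± 0.30 (adjusted p = 0.0809).

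Ucp3, a mitochondrial carrier of fast fibres that accompanies fat use, ranged from 55.9 to 101 CPM in irradiated libraries (median 76.8), against 47.3, 25.7 and 38.6 CPM in sham libraries (1.04 ± 0.20, adjusted p = 0.0839). The fatty acid transporter gene Slc27a1 was at 0.73 ± 0.15 (adjusted p = 0.0809). Lpl, the lipase that frees fatty acids from blood lipoproteins, was at 1.45 ± 0.45 and the oxidation enzyme genes Hadha and Hadhb at 0.50 ± 0.17 and 0.51 ± 0.17 (adjusted p = 0.216 to 0.228). Outside the list, Ucp2 (1.47 ± 0.27), Pank1 for coenzyme A synthesis (1.19 ± 0.23), the pyruvate dehydrogenase phosphatase gene Pdp2 (1.21 ± 0.23) and Depp1, a FoxO target (1.63 ± 0.27), had adjusted p of 0.0538 to 0.0809. The product of Pdp2 acts against that of Pdk4, so these genes do not all point the same way.

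Most general skeletal muscle markers and fast-fibre genes were lower in direction, but not all contractile genes were. Among myosin heavy chain genes 8 of 9 tested were higher (median 2.34), and slow-fibre genes are given below. Of 18 general skeletal muscle markers 16 were lower (median -0.30). At an unadjusted p under 0.05 there were 10 lower and 1 higher, set against 6.8% and 6.84% of all genes. In 6 of the 18 every irradiated library was below every sham library, set against 3.03% of all genes. This list and the fast-fibre list share genes, Casq1 and Pvalb among them, so their counts are not separate results. Of 16 fast-fibre genes tested 2 were higher (median -0.34), and at an unadjusted p under 0.05 there were 12 lower members, set against 6.8% of all genes, and 1 higher one. In 6 of them every irradiated library was below every sham library, which held for 3.03% of all genes. Casq1 (ENSMUSG00000007122), the calcium store protein of the fast-fibre sarcoplasmic reticulum, had 825, 691, 840 and 778 CPM in FLASH and 826, 567.9 and 683 CPM in CONV libraries, against 1182, 1131 and 1006 CPM in sham libraries (-0.57 ± 0.12, adjusted p = 0.0809). The calcium buffer gene Pvalb was at -0.51 ± 0.14, the fast alpha-actinin gene Actn3 at -0.49 ± 0.14 and Myh4, the myosin of the fastest fibres, at -0.34 ± 0.15 (adjusted p = 0.152, 0.153 and 0.327).

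In the calcium handling and ion transport list, which shares Casq1 and Pvalb, 6 of 23 members tested were higher (median -0.25). Beside Casq1, the calcium pump regulator Mrln (-0.60 ± 0.13), the chloride channel gene Clcn1 (-0.36 ± 0.08) and the triad junction gene Jph1 (-0.41 ± 0.10) had an adjusted p under 0.1 (0.0951, 0.0988 and 0.0999). In the lower direction 0.306% of all genes did so. The calcium release channel gene Ryr1 and the pump gene Atp2a1 were at -0.22 ± 0.12 and -0.26 ± 0.12 (adjusted p = 0.448 and 0.368). Glycolysis genes were lower in direction too, with 8 of 23 higher (median -0.24). They held 1 higher and 8 lower members at an unadjusted p under 0.05, set against 6.84% and 6.8% of all genes. Eno3 (-0.36 ± 0.11) and Ldha (-0.34 ± 0.11) were among these lower members, with adjusted p of 0.202 and 0.208.

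Slow-fibre genes differed far more between libraries than between groups. Their summed level was 85.5, 1115, 585 and 364 CPM in FLASH and 102, 4997 and 2064 CPM in CONV libraries, against 171, 167 and 48.6 CPM in sham libraries. FLASH 3 and CONV 7 lay inside the sham range, while CONV 8 and CONV 10 stood far above all others. Myh7, the slow myosin, had 3.98 to 2160 CPM in irradiated libraries (median 227), against 40.7, 46.2 and 0.921 CPM in sham libraries (4.20 ± 2.11, adjusted p = 0.435). All 13 slow-fibre genes tested were higher in direction (median 3.35), with none under an adjusted p of 0.1. At an unadjusted p under 0.05, 3 were higher and 0 lower, set against 6.84% and 6.8% of all genes. With a slow-fibre score as a covariate the medians of the macrophage, antigen presentation, fatty acid and fast-fibre lists were 0.84, 0.58, 0.40 and -0.23, and no gene passed at an adjusted p under 0.05 (973 at an unadjusted p under 0.05). The score is itself a measurement of these libraries, and its part in the differences was not tested further.

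**Figure D2:**
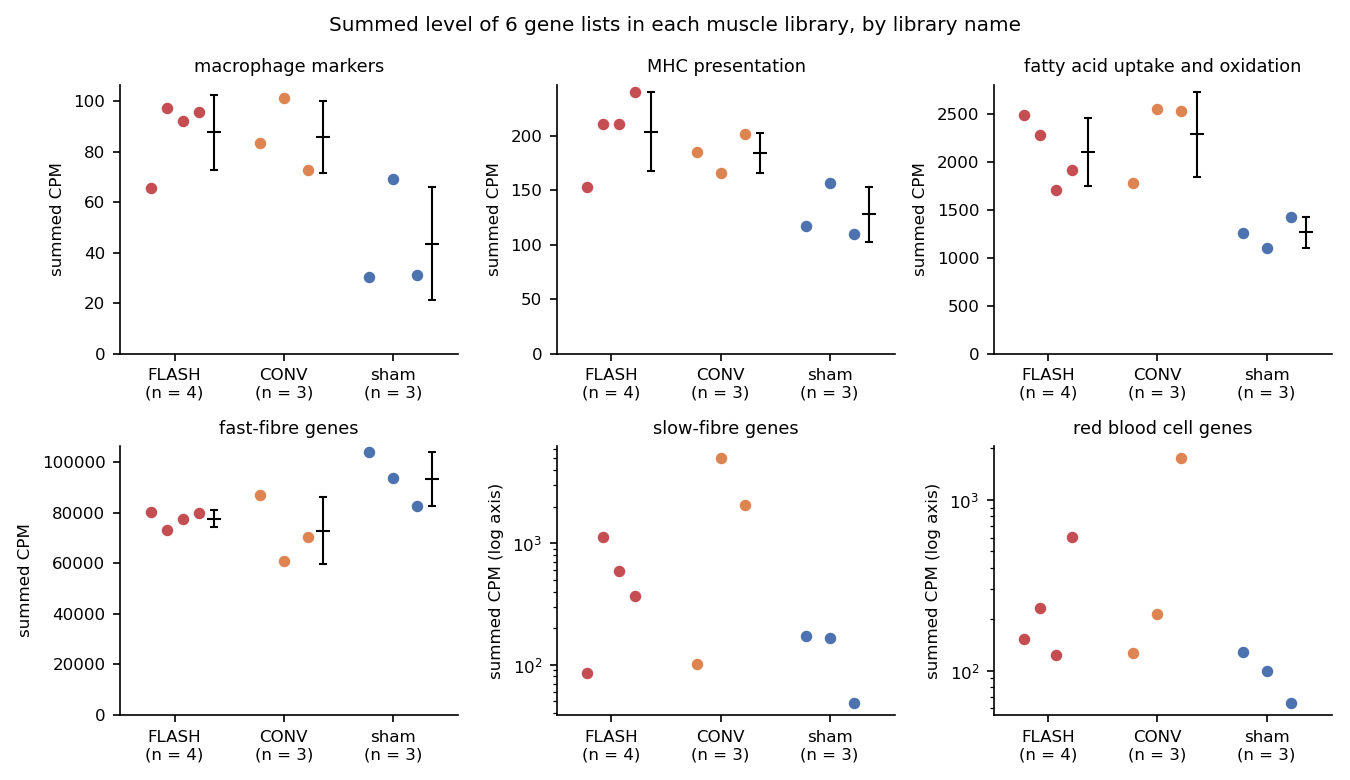
Summed level of 6 gene lists in each muscle library in CPM (vertical axes; logarithmic for the slow-fibre and red blood cell lists), for FLASH, CONV and sham libraries by library name; points are libraries, and bars on the linear panels are mean ± SD. The macrophage sums are 65.5 to 101 in irradiated and 30.2 to 69.4 in sham libraries, and the slow-fibre sums reach 4997 in CONV 8.

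Blood content also differed between libraries. The summed level of 7 red blood cell genes was 153, 233, 124 and 605 CPM in FLASH and 128, 215 and 1751 CPM in CONV libraries, against 128, 99.4 and 64.8 CPM in sham libraries, and CONV 10 stood apart. All 6 red blood cell genes tested were higher in direction (median 2.25). The macrophage sum of CONV 10 was 72.9 CPM, below that of 5 of the other 6 irradiated libraries. The part of blood content in the macrophage values was not tested. The tendon and cartilage sums ran from 50.3 CPM in FLASH 3 to 390 CPM in FLASH 4, against 100.1 to 204 CPM in sham libraries. Col1a1 and Col1a2, the chains of type I collagen, were at 0.00 ± 0.56 and 0.00 ± 0.47. Of fibrillar collagen and matrix genes 25 of 31 were higher in direction (median 0.16). At an unadjusted p under 0.05, 3 were higher and 0 lower, set against 6.84% and 6.8% of all genes. The median of the collagen and matrix list was 0.32 in FLASH and -0.20 in CONV against sham, and leaving out 1 library took the pooled median to between -0.02 and 0.41.

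Endothelial genes were higher in direction in 12 of 18 members tested, set against 6897 of 13080 of all genes. Pecam1, the junction protein of endothelial cells, ranged from 29.9 to 40.004 CPM in irradiated libraries (median 32.9), against 21.02, 21.97 and 27.3 CPM in sham libraries (0.55 ± 0.11, adjusted p = 0.0809). The endothelial matrix gene Mmrn2, outside the list and named for its small p, was at 0.64 ± 0.13 (adjusted p = 0.0809). The junction gene Cdh5 was at 0.28 ± 0.15 (adjusted p = 0.418). The median of the list was 0.21 by library name and -0.0069 by record. Its summed level was 266 to 379 CPM in irradiated and 266 to 316 CPM in sham libraries, so the groups overlapped. In 1 member every irradiated library was above every sham library, and in 1 below, set against 2.49% and 3.03% of all genes. The list held 4 higher and 1 lower member at an unadjusted p under 0.05, set against 6.84% and 6.8% of all genes.

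Atrophy and FoxO-glucocorticoid genes were higher in 24 of 28 members tested (median 0.20). The list held 7 higher and 0 lower members at an unadjusted p under 0.05, set against 6.84% and 6.8% of all genes. Beside Pdk4 these higher members were led by the ubiquitin ligase gene Cblb (0.49 ± 0.14), the autophagy gene Gabarapl1 (0.85 ± 0.23) and the glucocorticoid-responsive repressor Zbtb16 (0.55 ± 0.17), with adjusted p of 0.162 to 0.207. Fbxo32, the muscle atrophy ligase atrogin-1, was at 0.03 ± 0.23 (adjusted p = 0.978). Proteasome genes were lower in direction in 16 of 20 members (median -0.12). Among them 0 higher and 2 lower had an unadjusted p under 0.05, set against 6.84% and 6.8% of all genes.

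Of 30 antioxidant and oxidant-producing genes 21 were higher (median 0.13). Among them 10 were higher and 0 lower at an unadjusted p under 0.05, set against 6.84% and 6.8% of all genes. Cybb, the catalytic subunit of the phagocyte oxidase, ranged from 2.25 to 4.13 CPM in irradiated libraries (median 3.44), against 1.43, 1.48 and 1.53 CPM in sham libraries (1.12 ± 0.24, adjusted p = 0.0839). Cat, the catalase gene, was at 0.53 ± 0.13 (adjusted p = 0.119), and Sod2 of the mitochondrion at 0.07 ± 0.12.

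Clock genes, Bhlhe41 among them, were lower in direction in most cases. Of 19 tested, Bhlhe41 included, 3 were higher (median -0.23). With an unadjusted p under 0.05, 4 were lower, Bhlhe41 being 1 of them, and 1 higher, set against 6.8% and 6.84% of all genes. Hlf, a transcription factor that the clock drives, was at -0.61 ± 0.17, Clock at -0.31 ± 0.11 and Per1, a core repressor, at 0.52 ± 0.22 (adjusted p = 0.177, 0.221 and 0.343). The labels give no hour of collection. Immediate early genes were higher in direction in all 17 members tested (median 0.57). At an unadjusted p under 0.05, 3 were higher and 0 lower, set against 6.84% and 6.8% of all genes. Nr4a1 and Dusp1, the members highest in CPM, were at 0.05 ± 0.25 and 0.13 ± 0.15.

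**Figure D3:**
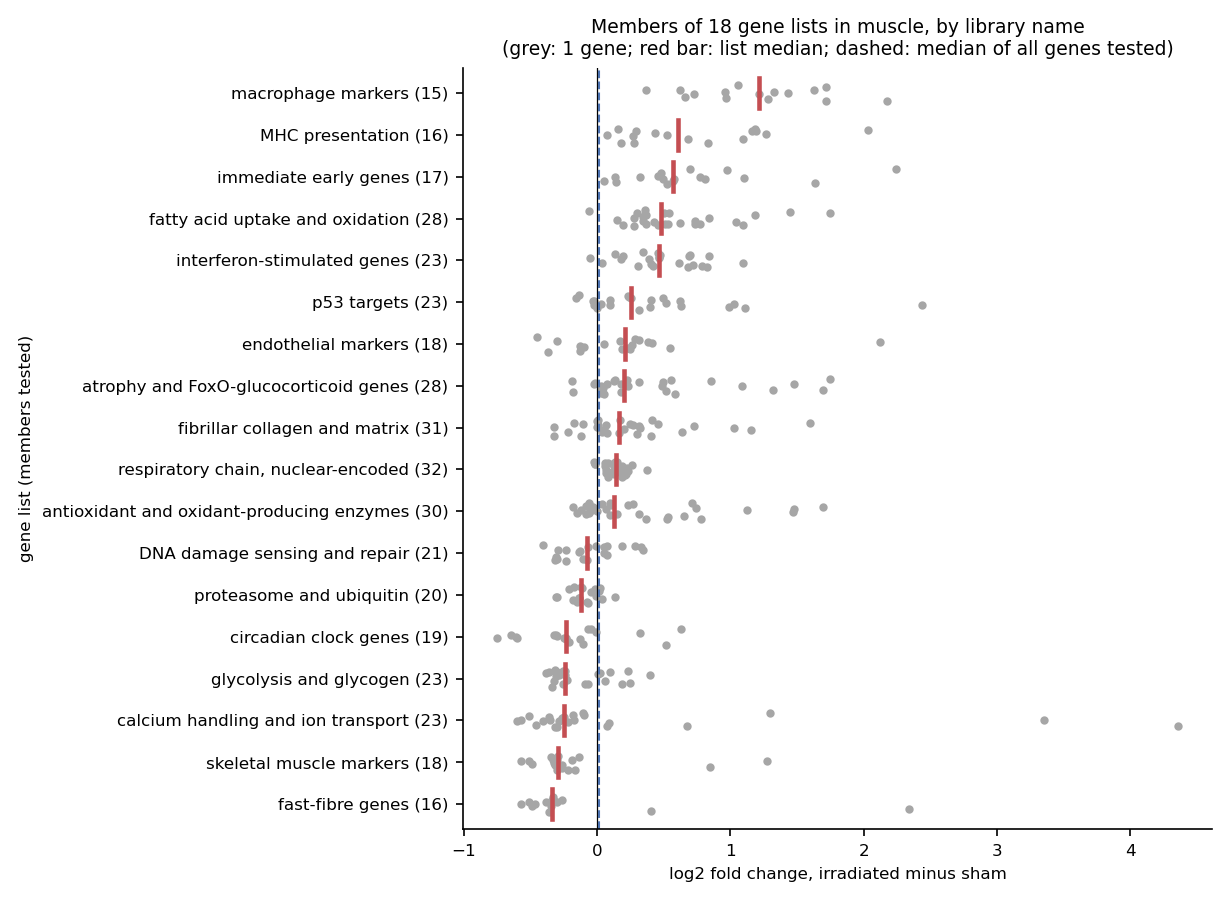
Log2 fold change of irradiated minus sham muscle (horizontal axis) for the tested members of 18 gene lists (1 grey point per gene, red bar at the list median, number tested in brackets), with the median of all genes tested as a dashed line. Macrophage markers are at 1.22 and fast-fibre genes at -0.34; lists not drawn reach further, with medians of 3.35 (slow-fibre), 2.34 (myosin heavy chains), 2.25 (red blood cell) and -0.39 (Schwann and nerve), and among the points only Bhlhe41, a circadian clock gene, passed the test.

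The irradiated arms were also set against sham separately, by library name only. Both use the same 3 sham libraries, so a chance deviation of those libraries enters both. The 40 genes described were chosen by their p over both arms together, so that choice largely fixes their direction in each arm, and nothing is read from it. FLASH minus sham gave no gene at an adjusted p under 0.05 (1293 genes at an unadjusted p under 0.05, or 9.89%, and 32 called by DESeq2), with a lowest adjusted p of 0.0809. CONV minus sham gave 67 higher (0.512%) and 97 lower genes (0.742%), 1.25% of all genes together, and 27 of the 40 were among them, which their choice over both arms favours.

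Ttyh2 was at -0.98 ± 0.15 in FLASH and -0.93 ± 0.16 in CONV (adjusted p = 0.0809 and 0.0184), and Bhlhe41 at -0.74 ± 0.12 and -0.76 ± 0.12 (0.0809 and 0.0164). Cdkn1a was at 2.27 ± 0.44 in FLASH and 2.64 ± 0.45 in CONV (0.219 and 0.0389), and Cd68 at 1.63 ± 0.33 and 1.82 ± 0.34 (0.179 and 0.0232). H2-Eb1 was at 1.29 ± 0.23 in FLASH and 1.23 ± 0.24 in CONV (0.179 and 0.0351). The median of the macrophage list was 1.17 in FLASH and 1.24 in CONV, and that of the fast-fibre list -0.29 and -0.42. That a gene passed in CONV and not in FLASH does not show a difference between them.

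The direct test of CONV minus FLASH called 1 gene (0.00765%), and it was not one of the 40. Glul, the glutamine synthetase gene, rose to 206, 292 and 239 CPM in CONV libraries, against 84.4, 101, 93.7 and 120 CPM in FLASH libraries, and sham libraries held 81.5, 74.6 and 72.6 CPM (1.30 ± 0.13, adjusted p = 0.00087). Over all irradiated libraries against sham Glul was at 1.09 ± 0.45 (adjusted p = 0.343).

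**Figure D4:**
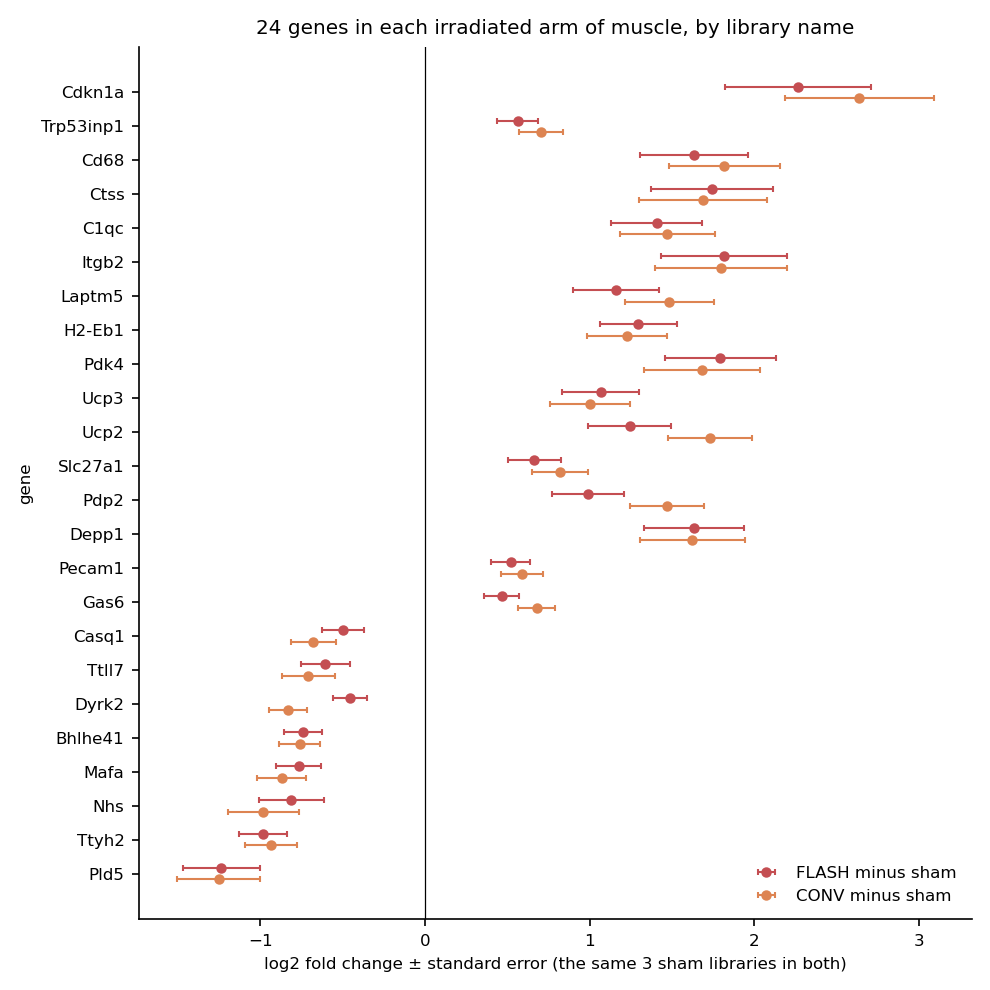
Log2 fold change ± standard error (horizontal axis) of 24 genes in FLASH minus sham (4 against 3 libraries) and CONV minus sham (3 against 3), by library name. Cdkn1a is the highest at 2.27 and 2.64, and Pld5 the lowest at -1.24 and -1.25; the genes were chosen by p over both arms and the same 3 sham libraries enter both, so a shared sign is built in.

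With the groups of the records, where FLASH 3 and FLASH 5 count as sham and sham 2 and sham 4 as irradiated, edgeR called no gene and 492 (3.76%) had an unadjusted p under 0.05. DESeq2 also called none, and the lowest adjusted p from edgeR was 0.97. The genes described were chosen by p under the library names, which by itself favours smaller values under any other grouping. Ttyh2 was at -0.17, Bhlhe41 at -0.21, Mafa at -0.11 and Pld5 at 0.14. Cdkn1a was at 0.79, Cd68 at 0.34, H2-Eb1 at 0.36 and Pdk4 at 0.02. The median of the macrophage list was 0.35, with all 15 members higher, and that of the fatty acid list 0.02, with 15 of 28 higher. The biological coefficient of variation, the typical spread of a gene within groups, was 0.17 by library name and 0.185 by record. The files do not say which assignment is right.

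The count of 4 genes depended on single libraries. Without FLASH 3, the library with the lowest Cdkn1a among the irradiated ones, edgeR called 55 higher and 25 lower genes, and 30 of the 36 described genes that had not passed did so. Without sham 2 it called 13 higher and 3 lower genes, H2-Eb1, C1qc, Cd68 and Pros1 among them. Without FLASH 6 it called 7 and without CONV 10 it called 2. Without sham 1 only Pdk4 passed, and with the 5 disagreeing libraries left out, which leaves 1 sham library assumed to vary like the rest, only Cdkn1a did (3.17, adjusted p = 0.00566).

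**Figure D5:**
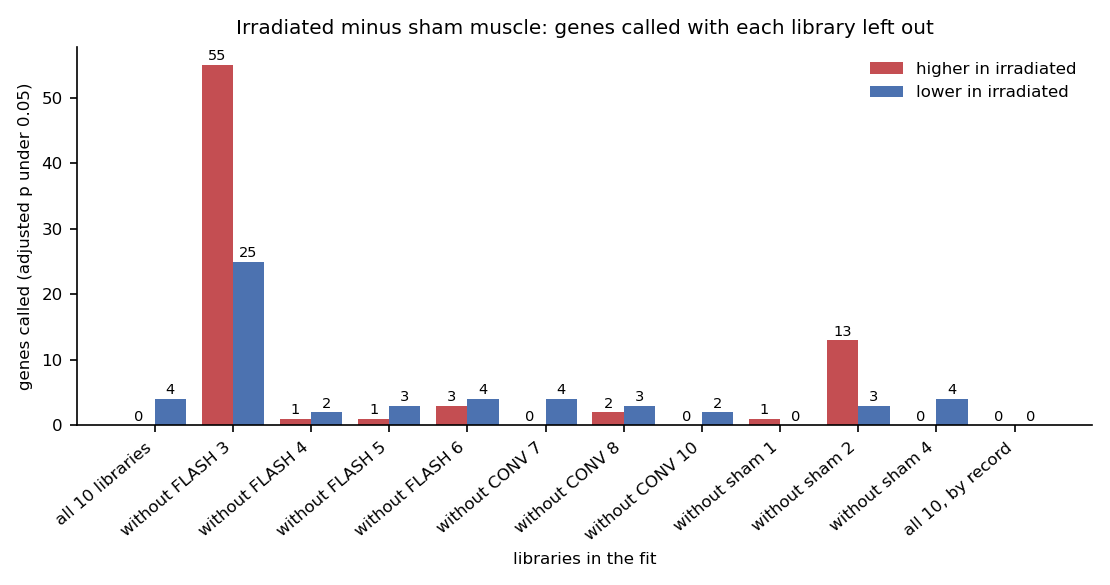
Number of genes with an adjusted p under 0.05 (vertical axis, from 0) that were higher or lower in irradiated than in sham muscle, with all 10 libraries, with each library left out in turn, and with the groups of the records. The counts are 0 higher and 4 lower with all libraries, 55 and 25 without FLASH 3, and 0 and 0 by record.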

How the data were processed

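Ribosome-depleted, stranded total RNA of 10 muscle libraries was sequenced, per the labels' protocols. The submitters' processing notes list kallisto 0.5.0 and mm10. For each transcript the authors deposited estimated counts and TPM; the TPM values served only as gene means beside the counts. Estimated counts were summed to genes through GENCODE M21 (98.5% of transcripts matched), rounded to whole numbers and tested with edgeR 4.0.16 (R 4.3.3, filterByExpr, TMM, robust quasi-likelihood test, Benjamini-Hochberg adjustment), which left 13080 of 35579 genes. DESeq2 1.42.0 was an alternative. Log2 fold changes carry the standard error of the fit, and CPM are TMM-scaled. Chi-square per degree of freedom between libraries of a group was 6.13 to 26.4, so none was a duplicate. Intervals between libraries cover sample spread, at 10198699 to 12336479 counts per library.

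Genes were named as those past the threshold with groups that do not overlap, up to 15 per direction, or else the 5 of smallest p, plus up to 4 called members of each list or, with none called, the 2 highest in CPM. Further genes were chosen after their values were seen. The comparison and the 42 gene lists were chosen with earlier results of these data known. The scripts were tested on simulated data.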

Additional observations from a re-analysis of the deposited data

Results flagged for a closer look

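Among 102 values tested for a library far from the rest of its group, 11 were found, and chance alone gives about 1 in 20 groups. FLASH 3 accounts for most of them. It was far below the other irradiated libraries, and below the other FLASH libraries, in Cdkn1a (5.43 CPM) and Laptm5 (3.14 CPM). Within FLASH alone it was also far below in Itgb2 (1.02 CPM), Pros1 (4.66 CPM) and the summed macrophage markers (65.5 CPM). FLASH 3 is 1 of the libraries whose name disagrees with its record, and it had the highest mitochondrial share of counts (11%). The part of either in these values was not tested.

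CONV 8 was far above the other irradiated libraries in the summed slow-fibre genes (4997 CPM) and in Ucp2 (16.2 CPM). CONV 10 was far above them in the summed red blood cell genes (1751 CPM). FLASH 4 was far below the other FLASH libraries in Mafa (15.2 CPM), at a level that CONV 8 and CONV 10 shared. Glul differed between the dose rates, by 1.30 on the log2 scale in CONV minus FLASH.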

How the results depend on the processing

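Against 4 genes with all libraries, DESeq2 called 156 in irradiated minus sham (3 of the 4 among them; Pld5 had no adjusted p there), the fit of 3 groups 55, no filter on low counts 75, a replicate block 14 and the groups of the records 0. Leaving out the 5 disagreeing libraries gave 1. Of the alternatives chosen after seeing the data, a slow-fibre covariate gave 0 and an adjusted p under 0.1 gave 97. Leaving out 1 library gave 1 to 80. In FLASH minus sham DESeq2 called 32, no filter 34 and leaving out 1 library 0 to 17. In CONV minus sham DESeq2 called 448, no filter 400 and leaving out 1 library 12 (without sham 1) to 656 (without CONV 7). In CONV minus FLASH DESeq2 called 49, no filter 32, the replicate block 2 and leaving out 1 library 1 to 61. The cause was not tested. By record 3 of the 40 genes described had the opposite sign: Pld5 (0.14), Ucp3 (-0.097) and Cers1 (0.042). RLE factors and leaving out mitochondrial genes moved no call among the 40. By record 16 of 35 list medians moved by more than the spread between replicates, and with the slow-fibre covariate 10 did. Replicate numbers were those of the record titles, not the numbers in the library names used here. By library name, libraries of the same replicate number correlated at -0.0752 to 0.105 in their deviations from group means. Those of unlike number correlated at -0.233 to 0.249. With groups of 3 and 4 libraries these values cannot decide whether the numbers pair the libraries. The replicate block put 7 more of the 40 past the threshold. Depth limits genes near 1 CPM, and 3 sham libraries limit every comparison.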
